A study of Homo sapiens with 6 samples.

Results

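The replication-dependent histone genes are the clustered genes of the linker histone H1 and of the core histones H2A, H2B, H3 and H4. They were taken as every gene of the expression table whose symbol had the form H1-1 to H1-6, or H2AC, H2BC, H3C or H4C followed by a number, whatever its level. This gave 59 of the 34738 listed genes, of which 5 were H1, 15 H2A, 16 H2B, 13 H3 and 10 H4 genes. Of these 48 lay on chromosome 6 and 11 on chromosome 1 of GRCh38.

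The study set thyroid cancer cells given an siRNA that targets GDF15 (siGDF15) beside negative control cells (NC), with 3 biological replicates per group by the study's methods, each sequenced as 1 library of poly(A) RNA. GDF15 encodes a secreted factor of the TGF-beta superfamily. The labels give the same cell line, KHM-5M, and the same disease for all 6 libraries, and the legend of the study's heatmap names another thyroid line, TPC-1. The labels name the groups control and GDF15, and the deposited design text speaks of a blank control, whereas the methods list a negative control siRNA, so it was not settled whether an siRNA was also given to them. If none was, an effect of transfection cannot be told apart from one of the knockdown. The time after transfection was not found in the labels.

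Histone messages of this kind are made in large amounts during S phase, when new DNA must be wrapped into nucleosomes. Most end in a short stem-loop in place of a poly(A) tail, which is bound by SLBP (stem-loop binding protein) and cut by the U7 snRNP and the cleavage factors CPSF2 and CPSF3. Some of these genes also yield polyadenylated transcripts, among other conditions in cells that leave the cell cycle or differentiate. In poly(A)-selected libraries a histone gene is therefore seen through its polyadenylated transcripts and whatever RNA without a tail was carried over, and total histone message was not measured.

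The stem-loop is the element that sets these messages apart, so those of 6 called members, from both chromosomes and with different stem-loops, are shown first. It lies just after the coding sequence. A stem-loop of 16 bases was found in the GENCODE release 29 (GRCh38) transcripts of 27 of the 59 members. The other members have release 29 transcripts in which none was found, in many cases because the annotated transcript is little longer than the coding sequence. Capitals mark the stem-loop, with 7 bases on each side in lower case, written 5′ to 3′. Those of H2BC4 (chr6:26123472-26123487, minus strand), H2AC6 (chr6:26124669-26124684, plus strand), H3C6 (chr6:26225596-26225611, plus strand), H4C8 (chr6:26285131-26285146, minus strand), H4C15 (chr1:149860769-149860784, minus strand) and H2BC21 (chr1:149886188-149886203, minus strand) lie in transcripts that continue past it.
H2BC4: ccccaaaGGCTCTTTTAAGAGCCacccaga
H2AC6: acccaaaGGCTCTTTTCAGAGCCcccctac
H3C6: atccaaaGGCTCTTCTCAGAGCCaaccact
H4C8: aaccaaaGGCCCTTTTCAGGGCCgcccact
H4C15: tcccaaaGGCCCTTTTTAGGGCCgaccact
H2BC21: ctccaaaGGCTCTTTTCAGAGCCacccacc

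The stem-loops came in 6 forms. The form of H2AC6 and H2BC21 was present in 15 members, that of H2BC4 in 4, those of H4C8 and H4C15 in 3 each, and that of H3C6 in H3C6 alone of the 27. Another form was found in H2AC11 alone. Of the release 29 transcripts that hold the stem-loop, the one with the most sequence after it runs on for 116 nt in H2BC4, 1128 nt in H2AC6, 1862 nt in H3C6, 1655 nt in H4C8, 1314 nt in H4C15 and 1729 nt in H2BC21.

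The 19002 genes that averaged at least 12 counts were tested in edgeR (quasi-likelihood, TMM scaling, p-values adjusted by Benjamini-Hochberg), from the deposited expected counts. In these files 1 read pair gave about 4 counts, so 12 counts are about 3 read pairs, the limit that a count of 0 allows (counting error only). Total counts were between 51738814 and 68025163 per library, with the lowest in siGDF15 replicate 2. GDF15 itself was at 22.4, 19.3 and 23.1 FPKM (fragments scaled by transcript length and by library size) in NC and at 10.8, 10.5 and 10.7 FPKM in siGDF15, a log2 fold change of -0.95 (SE 0.083, adjusted p = 2.57e-05). Of the thyroid markers, PAX8 went from 59.1 ± 5.33 to 79.4 ± 1.70 FPKM (SD, n = 3) and FOXE1 was at 2.76 and 2.83 FPKM, whereas TG (0.0548 and 0.186 FPKM), SLC5A5 and NKX2-1 were near 0 and TSHR was not listed. The leukocyte and endothelial markers PTPRC, CD3E, CD79A, CDH5 and PECAM1 were at most 0.128 FPKM on average in either group, and CD68 was at 18.3 and 16.9 FPKM.

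Of the 59 histone genes 29 reached the count minimum. In siGDF15, 19 of the 29 (65.5%) were higher at an adjusted p under 0.05, beside 20.8% of all tested genes. Only 3 (10.3%) were lower, beside 23.0% of all tested genes. The remaining 7 were not called, with log2 fold changes from -0.19 to 0.47. All 19 higher genes also passed a log2 fold change of 1 (4.65% of all tested genes did), as did 2 of the 3 lower genes (4.56%). The median log2 fold change was 1.61 over the 29 genes and 0.016 over all tested genes. In the 19 higher genes every siGDF15 library lay above every NC library and in the 3 lower genes below, with groups not overlapping in 23.0% (higher) and 32.1% (lower) of all tested genes.

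H2AC15, H2BC7 and H2BC6 reached the minimum only through siGDF15, and with a mean of at least 12 counts asked of each group 16 of 26 genes were higher (61.5%, beside 21.4% of all genes so tested) and 3 lower. The median log2 fold change of these 26 genes was 1.33, beside 0.017 over all genes so tested. In bulk RNA a change in the number of cells that hold a message and a change in its amount per cell cannot be told apart.

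**Figure D1:**
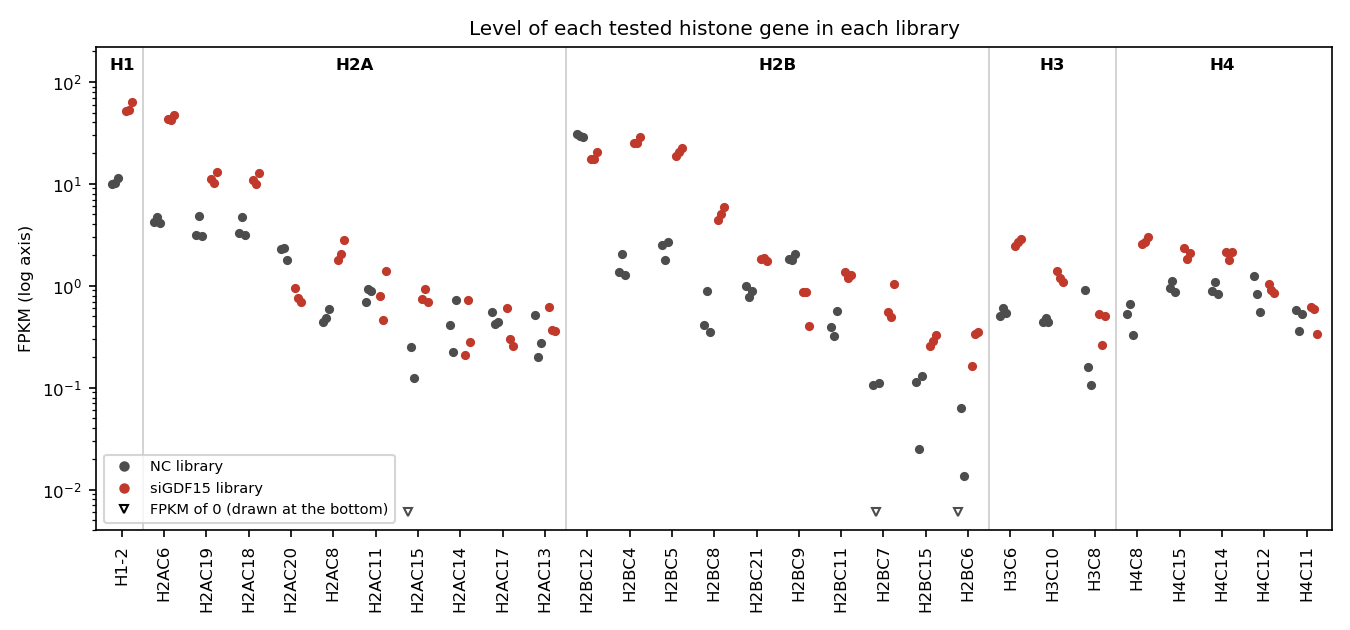
FPKM (log axis) of the 29 tested histone genes in each of the 3 NC and 3 siGDF15 libraries, grouped by class and ordered by mean level, with open triangles for an FPKM of 0. The siGDF15 points lie above the NC points in 19 genes and below them in H2AC20, H2BC9 and H2BC12.

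Summed over all 59 genes, the level was 73.2, 76.2 and 70.9 FPKM in the NC libraries and 209.8, 209.6 and 243.5 FPKM in the siGDF15 libraries. The siGDF15 libraries were all above the NC libraries, and the ratio of the means was 3.01. The makeup of this sum differed between the groups. H2BC12 held 40.5% of it in NC and 8.32% in siGDF15. H1-2 held 14.3% and 25.4%, H2AC6 5.94% and 19.99%, and H2BC4 2.13% and 11.9%. In NC the order of mean levels was H2BC12, H1-2 and H2AC6, and in siGDF15 it was H1-2, H2AC6 and H2BC4.

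The classes rose by different ratios of summed FPKM. H1 went from 10.6 ± 0.742 to 56.4 ± 6.23 FPKM (SD, n = 3), a ratio of 5.31. H2A went from 17.1 ± 2.39 to 73.2 ± 6.75 FPKM, a ratio of 4.29. H2B, the class with the highest sum in NC, went from 37.9 ± 0.930 to 75.9 ± 6.51 FPKM, a ratio of 2.00 that was 7.02 without H2BC12. H3 (3.10 and 5.94 FPKM, ratio 1.92) and H4 (4.72 and 9.44 FPKM, ratio 2.00) were the lowest. No NC library overlapped a siGDF15 library in any class. These ratios describe sums that a few genes dominate and were not tested. H1-2 held 10.5 of the 10.6 FPKM of H1 in NC and 56.0 of the 56.4 FPKM in siGDF15. H2AC6 held 4.36 of the 17.1 FPKM of H2A in NC and 44.2 of the 73.2 FPKM in siGDF15. The sum without H2BC12 was chosen after its fall was seen, and no other class was recomputed without its main gene.

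**Figure D2:**
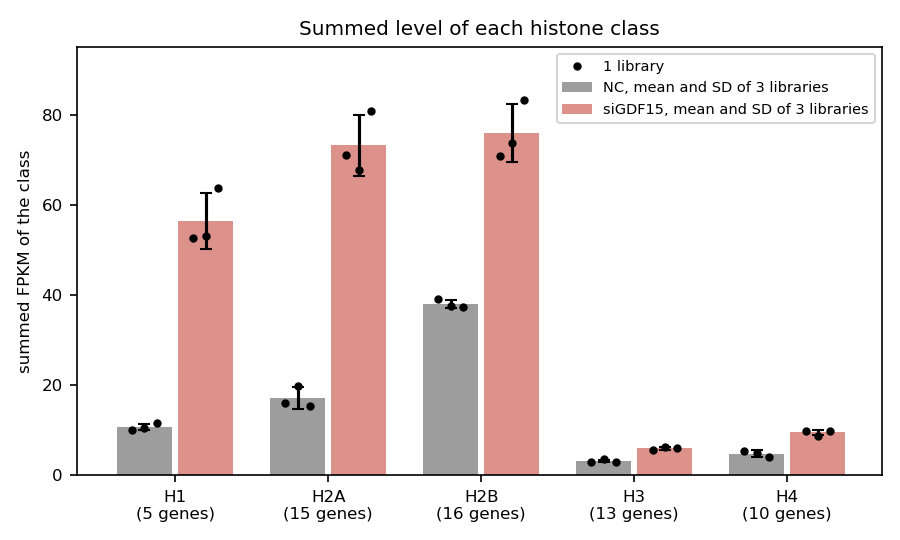
Summed FPKM of each histone class, as bars of the mean and error bars of the SD over 3 libraries per group, with points for single libraries. All siGDF15 points lie above the NC points, with ratios of the means from 1.92 in H3 to 5.31 in H1.

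H1-2 encodes a linker histone, which binds DNA where it enters and leaves the nucleosome, and it was the only 1 of the 5 H1 genes to be tested. It lies on the minus strand of chr6:26055740-26056470. H1-2 was at 9.91, 10.3 and 11.4 FPKM in NC and at 51.9, 52.8 and 63.3 FPKM in siGDF15. Every siGDF15 library was above 51 FPKM and every NC library below 12 FPKM. The log2 fold change was 2.48 (SE 0.099, adjusted p = 5.9e-07). H1-4, the H1 gene next in mean level, was below the count minimum, with 4, 5 and 7 counts in NC and 19, 13 and 14 in siGDF15. Its groups did not overlap, and about 4 and 12 read pairs gave a ratio of 3.26 (exact 95% interval 0.988 to 13.9). This and later ratios of read pairs are scaled by total counts. With a mean FPKM of at least 0.1 as the filter H1-4 was called (log2 1.69, adjusted p = 0.025). With no filter it was not. H1-3, H1-5 and H1-6 had at most 10 counts in any library.

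H2A forms a dimer with H2B in the nucleosome. Of its 15 genes 10 were tested. Of those 5 were higher and 1 lower, beside 20.8% and 23.0% of all tested genes, and 4 were not called. Of the higher genes H2AC15 had reached the count minimum only through siGDF15. H2AC6 (chr6:26124145-26139116, plus strand) was at 4.2, 4.74 and 4.15 FPKM in NC and at 42.8, 41.8 and 47.8 FPKM in siGDF15, with no overlap of the groups. Its log2 fold change was 3.41 (SE 0.079, adjusted p = 8.9e-08). H2AC19, on chromosome 1, was at 3.14, 4.80 and 3.06 FPKM in NC and at 11.1, 10.3 and 12.9 FPKM in siGDF15. The NC libraries were again all lower, and its log2 fold change was 1.71 (SE 0.20, adjusted p = 1.6e-04). H2AC18 encodes the same histone, and its counts (133, 188 and 126 in NC, 436, 307 and 512 in siGDF15) were close to those of H2AC19 (127, 193 and 123 in NC, 445, 317 and 517 in siGDF15). Such a near-identical pair can share reads, so the split between H2AC18 and H2AC19 is uncertain.

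H2AC20 fell, from 2.30, 2.33 and 1.77 FPKM in NC to 0.947, 0.756 and 0.694 FPKM in siGDF15. All 3 siGDF15 libraries were below 1 FPKM and all NC libraries above 1.7 FPKM. The log2 fold change was -1.32 (SE 0.28, adjusted p = 4.8e-03). H2AC15 had 0, 10 and 5 counts in NC and 28, 27 and 26 in siGDF15, a ratio of 5.43 over about 4 and 20 read pairs (exact 95% interval 1.82 to 21.9). Its call (log2 2.61, SE 0.80, adjusted p = 0.026) was lost without any 1 of the siGDF15 replicates, with adjusted p between 0.056 and 0.074. Without NC replicate 2 its log2 fold change was 3.56. H2AC17 was at 0.553, 0.417 and 0.443 FPKM in NC and 0.609, 0.298 and 0.254 FPKM in siGDF15. The groups of H2AC17 overlapped (log2 -0.19, SE 0.49, adjusted p = 0.79). It shares 408 nt of the same strand with the H3 gene H3C12. The remaining H2A genes, chosen for mention after their values were seen, were H2AC8, which was higher (log2 2.14, SE 0.31), and H2AC11, H2AC13 and H2AC14, whose log2 fold changes lay between -0.11 and 0.47 and whose groups overlapped.

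H2B had the widest range. Of its 16 genes 10 were tested. All 10 were called, 8 higher and 2 lower, beside 20.8% higher and 23.0% lower of all tested genes. Of the higher genes 2 (H2BC6 and H2BC7) had reached the count minimum only through siGDF15. H2BC4 (chr6:26114873-26123926, minus strand) was at 1.36, 2.07 and 1.26 FPKM in NC and at 24.9, 25.2 and 28.7 FPKM in siGDF15. The siGDF15 libraries were far above the NC libraries, with a log2 fold change of 4.12 (SE 0.18, adjusted p = 7.0e-07), the largest of the 29 tested genes. H2BC12 (chr6:27146361-27146855, minus strand) encodes the same class of histone and went the other way, from 30.9, 29.5 and 28.8 FPKM in NC to 17.3, 17.3 and 20.5 FPKM in siGDF15. The siGDF15 libraries were all lower than the NC libraries, and the log2 fold change was -0.62 (SE 0.093, adjusted p = 6.2e-04). In NC the mean of H2BC12 was 29.7 FPKM and that of H2BC4 was 1.56 FPKM, whereas in siGDF15 they were 18.4 and 26.3 FPKM.

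H2BC9 also fell, from 1.82, 1.77 and 2.05 FPKM in NC to 0.872, 0.865 and 0.402 FPKM in siGDF15. The groups did not overlap (log2 -1.30, SE 0.37, adjusted p = 0.019). H2BC6 was sparse, with 0, 13 and 3 counts in NC and 33, 52 and 70 in siGDF15. About 4 and 39 read pairs gave a ratio of 10.6 (exact 95% interval 3.82 to 40.8) and the call was adjusted p = 9.6e-03 (log2 3.46, SE 0.85). Without NC replicate 2, which held most of its NC counts, the log2 fold change was 5.18. The other higher H2B genes, outside the naming rule, were H2BC8, H2BC7, H2BC5, H2BC15, H2BC11 and H2BC21. Of these H2BC8 had the largest fold (0.408, 0.890 and 0.348 FPKM in NC, 4.37, 5.01 and 5.98 FPKM in siGDF15, log2 3.28, SE 0.36). H2BC5 was at 2.49, 1.77 and 2.71 FPKM in NC and 18.8, 20.4 and 22.4 FPKM in siGDF15, again without overlap (log2 3.20, SE 0.17, adjusted p = 1.7e-06). H2BC7 rested on about 2 and 18 read pairs, a ratio of 9.78 (exact 95% interval 2.34 to 86.9). H2BC5 and H2BC6 overlap ENSG00000283064, a gene of the opposite strand that is not listed as protein coding, and the strand setting of the counting is not given in the sources used here. The call of H2BC15 (log2 1.74, adjusted p = 0.022) was lost without siGDF15 replicate 2 or 3, with a highest adjusted p of 0.069.

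H3 and H4 form the tetramer at the centre of the nucleosome, and both were low. Of 13 H3 genes 3 were tested. H3C6 was at 0.499, 0.610 and 0.536 FPKM in NC and at 2.46, 2.66 and 2.86 FPKM in siGDF15, and its groups were well apart (log2 2.35, SE 0.15, adjusted p = 4.4e-06). H3C10 was at 0.438, 0.480 and 0.442 FPKM in NC and at 1.39, 1.19 and 1.09 FPKM in siGDF15, also without overlap (log2 1.47, SE 0.23, adjusted p = 8.6e-04). H3C8, named after its values were seen, was not called (log2 0.25, SE 0.78), and its NC libraries ran from 0.107 to 0.910 FPKM. The other 10 H3 genes, among them the near-identical H3C14 and H3C15, stayed below the count minimum.

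Of 10 H4 genes 5 were tested and 3 were higher, beside 20.8% of all tested genes. H4C8 was at 0.534, 0.665 and 0.328 FPKM in NC and at 2.54, 2.69 and 3.00 FPKM in siGDF15, with no overlap (log2 2.48, SE 0.24, adjusted p = 4.9e-05). H4C14 had 125, 153 and 118 counts in NC and 306, 195 and 301 in siGDF15. H4C15 had 134, 158 and 124 counts in NC and 332, 198 and 298 in siGDF15. Both were higher in siGDF15, with log2 fold changes of 1.19 and 1.16 (SE 0.17 and 0.18), but they are near-identical copies on chromosome 1 and their reads cannot be told apart. H4C11 and H4C12, outside the naming rule, did not differ beyond their spread (log2 0.13 and 0.15, SE 0.49 and 0.42).

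The 30 genes below the count minimum had mean levels of at most 0.335 FPKM and at most 21 counts in any library. Their sum was 3.15, 4.31 and 3.33 FPKM in NC and 3.95, 4.15 and 4.46 FPKM in siGDF15, and these groups overlapped. In 25 of the 30 the groups overlapped, 4 (H2BC18, H3C2, H1-4 and H2BC13) were higher in every siGDF15 library and 1 (H3C7) was lower, beside 4.24% and 2.90% of all 15736 listed genes below the minimum. Counts this low could not show a difference of moderate size. Of the 43 genes with a mean under 1 FPKM, 13 were tested, 6 were higher and none lower, beside 12.1% higher and 7.60% lower of all tested genes under 1 FPKM. Of the 6 higher genes 3 (H2AC15, H2BC7 and H2BC6) had reached the count minimum only through siGDF15. Of the 16 at 1 FPKM or more, 13 were higher and 3 lower.

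The genes fell into 4 groups along the chromosomes, taken as stretches with no gap over 200 kb between neighbours. On chromosome 1 (chr1:149782689-149887965) there were 11 genes, of which 6 were tested, 5 higher and 1 lower, with a median log2 fold change of 1.18. These 5 include the near-identical pairs H2AC18 with H2AC19 and H4C14 with H4C15, which can share reads. The first group on chromosome 6 (chr6:26020451-26285638) had 28 genes, of which 12 were tested, 10 higher and 1 lower, with a median of 2.84. The second (chr6:27125897-27147562) had 5 genes, of which 3 were tested, 1 higher and 1 lower, with a median of 0.17. The third (chr6:27807479-27893891) had 15 genes, of which 8 were tested, 3 higher and none lower, with a median of 0.31. H2BC6 and H2BC7 in the first group on chromosome 6 and H2AC15 in the third had reached the count minimum only through siGDF15.

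H2BC4, H2AC6 and H1-2 lie in the first group on chromosome 6, where the summed FPKM was 6.44 times higher in siGDF15. It went from 25.1, 25.8 and 25.6 FPKM in NC to 154.0, 157.1 and 181.5 FPKM in siGDF15. In the second group, which holds H2BC12, the sum went from 32.1, 31.2 and 30.6 FPKM to 19.8, 19.4 and 23.8 FPKM, a ratio of 0.672. Over chromosome 6 as a whole the median was 1.74 (23 tested, 14 higher, 2 lower) and the ratio of sums 3.15. That median also includes H2BC6, H2BC7 and H2AC15. The difference between the chromosomal groups was not tested.

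**Figure D3:**
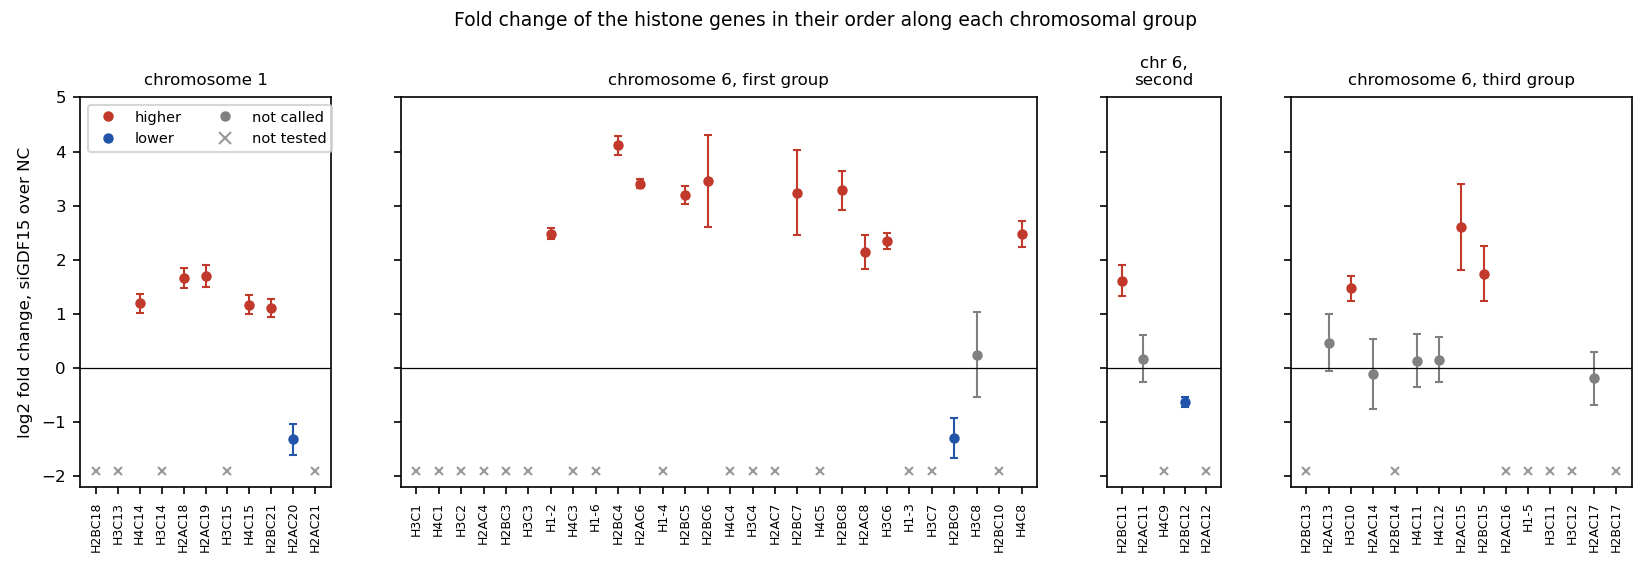
Log2 fold change (siGDF15 over NC, error bars of 1 SE) of the 59 histone genes in their order along the 4 chromosomal groups, with crosses for the genes below the count minimum. In the first group on chromosome 6, 10 of the 12 tested genes were higher, beside 20.8% of all tested genes. In this group 1 was lower (H2BC9) and 1 not called (H3C8). Of these higher genes, H2BC6 and H2BC7 had reached the count minimum only through siGDF15.

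Many H2A and H2B genes stand head to head with a shared promoter. Members on opposite strands with starts within 1000 nt of each other gave 12 pairs, of which 10 joined an H2A and an H2B gene, with 169 to 292 nt between them, and 2 an H3 and an H2B gene. In 5 pairs, all of H2A with H2B, both genes were tested. In 3 pairs both were higher (H2BC4 with H2AC6, H2BC8 with H2AC8, and H2AC15 with H2BC15). Of these genes H2AC15 had reached the count minimum only through siGDF15. H2BC11 was higher (log2 1.61, SE 0.29) beside H2AC11, which was not called (log2 0.17, SE 0.44). In 1 pair the calls were opposite. H2BC21 rose from 0.984, 0.772 and 0.890 FPKM to 1.81, 1.89 and 1.76 FPKM (log2 1.11, SE 0.17), while H2AC20, whose gene begins 235 nt away, fell. These pairs were described after their values were seen.

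The promoters of these genes hold short elements known to bind NF-Y (the CCAAT box), the TATA-binding protein and the Oct1 factor (the octamer), with Oct1 long known for H2B genes. The windows shown run from 250 bases before to 50 after the RefSeq gene start (GRCh38.p14), for H2BC4 (largest rise, chr6:26123877-26124176), H2BC21 (opposite call to its partner, chr1:149886633-149886932), H1-2 (chr6:26056421-26056720) and H2BC12 (most abundant in NC and lower in siGDF15, chr6:27146806-27147105), all on the minus strand. Capitals mark the CCAAT letters, the TATA letters (TATAAA) and the octamer letters (ATTTGCAT) on either strand, and in H2BC12 the TATA letters of both strands overlap at 1 place.
H2BC4: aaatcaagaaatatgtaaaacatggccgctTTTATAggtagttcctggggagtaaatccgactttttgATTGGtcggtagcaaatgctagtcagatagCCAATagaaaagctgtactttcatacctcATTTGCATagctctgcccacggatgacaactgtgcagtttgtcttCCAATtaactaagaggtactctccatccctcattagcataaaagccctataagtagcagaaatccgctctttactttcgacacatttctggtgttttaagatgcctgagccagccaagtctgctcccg
H2BC21: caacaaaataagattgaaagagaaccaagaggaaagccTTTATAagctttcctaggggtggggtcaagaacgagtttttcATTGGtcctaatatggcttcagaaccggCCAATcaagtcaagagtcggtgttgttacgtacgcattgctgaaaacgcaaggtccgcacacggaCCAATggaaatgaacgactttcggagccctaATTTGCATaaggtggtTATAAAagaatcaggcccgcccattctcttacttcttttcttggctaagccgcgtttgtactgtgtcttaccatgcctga
H1-2: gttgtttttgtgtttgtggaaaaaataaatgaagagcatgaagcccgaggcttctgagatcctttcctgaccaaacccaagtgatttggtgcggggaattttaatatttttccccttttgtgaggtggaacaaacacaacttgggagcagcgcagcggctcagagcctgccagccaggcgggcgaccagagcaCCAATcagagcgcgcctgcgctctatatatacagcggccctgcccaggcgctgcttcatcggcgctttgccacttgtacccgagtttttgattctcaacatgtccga
H2BC12: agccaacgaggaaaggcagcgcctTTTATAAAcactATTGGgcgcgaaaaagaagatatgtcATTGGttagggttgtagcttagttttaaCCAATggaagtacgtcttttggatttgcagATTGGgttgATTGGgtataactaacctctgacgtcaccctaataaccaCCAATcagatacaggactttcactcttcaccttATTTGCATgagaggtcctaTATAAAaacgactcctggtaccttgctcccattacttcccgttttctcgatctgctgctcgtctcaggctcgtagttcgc

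The H2BC4 window shares 255 bases with that of H2AC6, and the H2BC21 window 265 bases with that of H2AC20, so the members of each pair have nearly the same letters although H2BC21 and H2AC20 had opposite calls. The CCAAT letters occur 3 times in the window of H2BC4, 3 times in that of H2BC21, 6 times in that of H2BC12 and 1 time in that of H1-2. RefSeq windows were at hand for 54 of the 59 members (not for H2AC12, H3C11, H3C12, H4C1 and H4C3). The CCAAT letters were found in 47 of the 54, beside 34.6% of all 35116 windows, and in 16 of 19 higher, 3 of 3 lower and 5 of 7 genes not called. The TATA letters were found in 36, beside 11.5% of all windows, and in 12 of 19 higher, 2 of 3 lower and 6 of 7 genes not called. The octamer letters were found in 24, beside 1.77% of all windows, and in 8 of 19 higher, 3 of 3 lower and 3 of 7 genes not called. By class the octamer was in 10 of 14 H2A, 13 of 16 H2B and 1 of 11 H3 windows and in none of the 5 H1 and 8 H4 windows. A match is a description of the letters and not a bound site. Windows of head-to-head pairs can overlap and both strands were read, so a single element can count for both members of a pair.

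The genes also differed in the length of their models in the deposited table. With a division at 1000 nt of genomic span, chosen after the values were seen, 14 genes were long (1250 nt or more) and 45 short (797 nt or less). Of the long genes 12 were tested, and all 12 were higher, with a median log2 fold change of 2.04. Of the short genes 17 were tested, of which 7 were higher, 3 lower and 7 not called, with a median of 0.25. Over all tested genes the shares were 20.8% higher and 23.0% lower. The 7 short genes that were higher were H1-2, H2AC18, H2AC19, H2AC8, H2BC8, H2AC15 and H2BC7. Among the higher genes, H2BC6 (long) and H2AC15 and H2BC7 (short) had reached the count minimum only through siGDF15. Both medians include them. The near-identical copies H4C14 and H4C15 (long) and H2AC18 and H2AC19 (short) were counted as separate genes. The summed FPKM of the long genes went from 13.2 ± 0.625 in NC to 105.6 ± 7.32 in siGDF15 (SD, n = 3), a ratio of 7.97, and that of the short genes from 60.2 ± 2.07 to 115.4 ± 12.2, a ratio of 1.92.

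This division depended on the annotation. In GENCODE release 29, 9 of the short genes have transcripts of 1196 to 2411 nt that run at least 200 nt past the stem-loop, among them H2BC8, H2BC7, H2BC9, H3C8 and H2AC11. When members were divided by such a release 29 transcript, 11 of 14 tested genes with it were higher, 1 lower and 2 not called, and the median was 1.60, beside 1.61 in the other 15. Over all 29 tested genes 19 were higher, 3 lower and 7 not called, so the share higher was larger with such a transcript although the medians were close. H2BC6 and H2BC7, both with it, and H2AC15, without it, had reached the count minimum only through siGDF15. These counts and medians include them. The ends of the gene in the table equalled those of release 29 in 7 members and differed in 48, and the identifiers of 4 were not in it. For a short model, reads past its end do not count toward the gene.

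**Figure D4:**
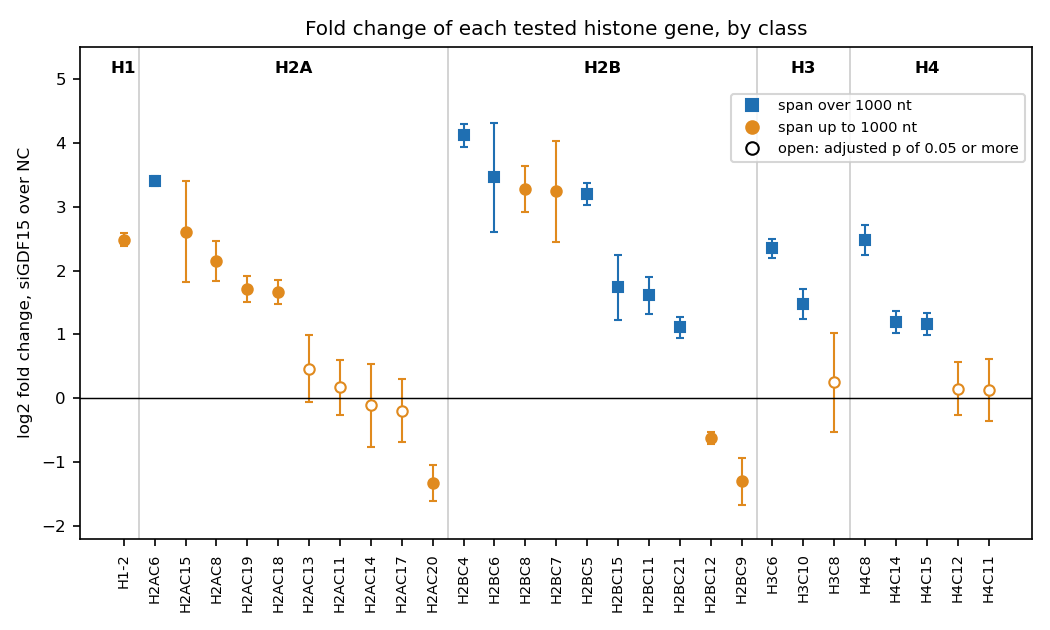
Log2 fold change (siGDF15 over NC, error bars of 1 SE) of the 29 tested histone genes by class, with squares for genes with a span over 1000 nt in the deposited table, circles for shorter ones and open symbols for genes not called. All 12 squares lie above 1, and the circles run from -1.32 to 3.28.

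The ratio of count to FPKM gives the average transcript length to which the quantification assigned the reads, here scaled on 5 members with a single transcript. For H2AC6 it was 1670 nt in NC and 1667 nt in siGDF15, beside 1668 nt for its longest release 29 transcript. For H3C6 it was 2688 and 2683 nt, beside 2679 nt. For H4C8 it was 2211 and 2169 nt, beside 2163 nt, and for H2BC4 it was 735 and 723 nt. In H2AC6, H3C6 and H4C8 this was near the length of the transcript that runs far past the stem-loop. It was not so in H2BC4, whose release 29 transcript with the stem-loop has 571 nt and whose other transcript, of 659 nt, has none. H2BC5 was at 865 and 861 nt, beside 496 nt for its transcript with the stem-loop and 789 nt for the one without. In H2BC4 and H2BC5 the value lay above the longest release 29 transcript, so it was not matched to one. In all 5 genes the assigned length was close in both groups.

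The genes that act on histone messages moved the other way. Of 14 genes of histone RNA processing all were tested, 12 were lower and none higher, with a median of -0.58 on the log2 scale. Of all tested genes 23.0% were lower and 20.8% higher. LSM11 and CASP8AP2 fell most. LSM11, a subunit of the U7 snRNP, averaged 1.74 ± 0.0523 FPKM in NC against 0.786 ± 0.179 FPKM (SD, n = 3), or -1.08 on the log2 scale (adjusted p = 5.9e-04 from edgeR). CASP8AP2, a component of the histone locus body, averaged 4.75 ± 0.372 against 2.26 ± 0.272 FPKM, or -1.0 on the log2 scale. SLBP, named after its values were seen, was at 48.6, 46.4 and 51.2 FPKM in NC and at 28.4, 29.4 and 25.3 FPKM in siGDF15 (log2 -0.75, SE 0.076, adjusted p = 6.6e-05). LSM10 and ZNF473 were not called.

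Of 18 genes of S phase 17 were lower and none higher, with a median of -1.31, and the largest falls were in RRM2, a subunit of ribonucleotide reductase (log2 -1.93), and CDC45, part of the replicative helicase (log2 -1.79). Of 21 histone chaperones 16 were lower and 2 higher (ATRX, log2 0.52, and SUPT6H, log2 0.29, named after their values were seen), with a median of -0.71 and the largest falls in HJURP (log2 -1.9) and TONSL (log2 -1.67). Of 12 replacement histones, which are made throughout the cell cycle or outside the clusters, 9 were lower and none higher, with a median of -0.61 and the largest falls in CENPA (log2 -1.65), the centromeric H3, and H2AX (log2 -1.59), the H2A of DNA damage signalling. The counts of these lists stand beside 23.0% lower and 20.8% higher of all tested genes. Of the clustered histone genes, 19 of the 29 tested were thus higher in the libraries in which S phase genes were lower. The part of cell cycle state in the histone levels was not tested.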

How the data were processed

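Poly(A) RNA of 3 siGDF15 and 3 NC libraries was sequenced as read pairs of 150 bases. Per the submitters' notes fastp, HISAT2, StringTie and edgeR were used on GRCh38, and versions, annotation release and strand setting are not given in the sources used here. The authors deposited FPKM (fragments scaled by transcript length and library) and expected counts, which are whole numbers derived from coverage and not normalized, so precision rests on read pairs of about 4 counts. Columns of the authors' own comparison were not used.

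The expected counts were tested in edgeR 4.0.16 (quasi-likelihood, two-sided, TMM, no block, R 4.3.3) over all genes with a mean of at least 12 counts, with Benjamini-Hochberg adjustment and a threshold of 0.05. SE was derived from the fold change and its F statistic. DESeq2 1.42.0 and limma 3.58.1 on log2 of FPKM plus a pseudocount of 1 or 0.1 were alternatives, beside other scalings, filters, count units, a replicate block and each library left out. The script was tested on simulated data. Ratios of read pairs were scaled by the summed total counts of the groups, so they differ from the quotient of the pairs printed. Their exact binomial 95% intervals, scaled alike, cover counting error only. P-values measure the spread between the 3 replicates of a group, which the study calls biological.

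The members and lists were chosen with earlier results of these data known. The rule for named genes took, in each class, the 2 genes with the highest mean FPKM and the 2 tested genes with the largest positive and the 2 with the largest negative log2 fold change, and in each comparison list the 2 largest changes among called genes. Stem-loops came from GENCODE release 29 and promoters from RefSeq. The span division, the divergent pairs, the near-identical pairs, the sum without H2BC12 and the filter on each group were chosen after seeing the data.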

Additional observations from a re-analysis of the deposited data

How the results depend on the processing

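The number of histone genes higher in siGDF15 stayed at 19 of 29 with DESeq2 size factors, total counts, equal medians, DESeq2, counts divided by 4, both limma fits and the replicate block. It was 13 of 16 genes that averaged 1 FPKM or more, 21 of 45 that averaged 0.1 FPKM or more (adding H1-4 and H2BC13), 18 of 59 with no filter, 17 of 27 with near-identical pairs counted once, and 17 to 19 with each library left out. The number of lower genes was 3 in every one of these settings. The median log2 fold change of the tested members moved more. It was 1.55 with total counts, 1.70 with equal medians, 1.59 with counts divided by 4, 1.64 with the replicate block, 0.64 and 1.25 with limma at pseudocounts of 1 and 0.1, 1.96 where FPKM averaged at least 1, 0.84 where it averaged at least 0.1, 0.68 with no filter, and 1.43 to 1.65 with each library left out. Limma's values are on the log2(FPKM + pseudocount) scale, which understates changes of low genes, and the looser filters add genes near 0. With a mean of at least 12 counts asked of each group the median of the 26 tested members was 1.33. Equal medians moved the median of all genes to 0.11. The share of higher calls among all calls was 47.4% with TMM, 59.0% with equal medians and 39.2% with total counts. GDF15 stayed lower throughout. H2AC17, not called, ran from -0.66 without siGDF15 replicate 1 to 0.034 without siGDF15 replicate 3. The calls of H2AC15 and H2BC15 that were lost are given with their values above, and H2AC15 was also lost with no filter (adjusted p = 0.063). Deviations of same-numbered libraries had correlations of 0.00073, -0.0039 and -0.0084, so no shared variation by replicate number was seen. These correlations cannot show whether the cultures were set up in pairs. The replicate block changed no call among the members. Depth limits the 30 untested genes most.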

Other observations

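The genes that lie between the histone genes were looked at as neighbours that the symbol rule left out. Inside the 4 chromosomal groups 17 other genes were listed, 8 were tested, 2 were higher, none was lower at an adjusted p under 0.05 from edgeR's quasi-likelihood test, and 6 were not called. Of all tested genes 20.8% were higher and 23.0% lower, so 2 higher of 8 was near the share over all genes. The median log2 fold change of the 8 was -0.13. HFE, which regulates iron uptake and lies in the first group on chromosome 6, was at 3.08, 3.57 and 2.45 FPKM in NC and at 2.45, 2.55 and 2.77 FPKM in siGDF15 (log2 -0.16, SE 0.12, adjusted p = 0.34). BOLA1, a mitochondrial protein gene on chromosome 1, overlaps H2AC21 by 76 nt on the opposite strand. BOLA1 was at 3.85, 4.52 and 4.28 FPKM in NC and at 3.01, 3.49 and 2.65 FPKM in siGDF15 (log2 -0.40, SE 0.15, adjusted p = 0.056). The histone pseudogenes H2BC19P and H2BC20P were not called (log2 -0.40 and 0.043).

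The 2 neighbours that were higher both overlap histone genes, as does BOLA1, which was not called. ENSG00000282988, a gene on the same strand that contains H3C4 and H2AC7, went from 0.293, 0.171 and 0.224 FPKM in NC to 2.14, 1.69 and 1.96 FPKM in siGDF15 (log2 3.10, SE 0.24, adjusted p = 1.4e-05). H3C4 and H2AC7 themselves were below the count minimum. ENSG00000283064, opposite to H2BC5 and H2BC6, went from 0.284, 0.251 and 0.108 FPKM in NC to 0.464, 0.682 and 0.373 FPKM in siGDF15 (log2 1.31, SE 0.43, adjusted p = 0.035). These genes were chosen after their values were seen, and reads shared with the histone genes they overlap were not tested.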
